A study of Mus musculus with 4 samples.

Results

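The 10 genes described here encode the proteins that release calcium from the endoplasmic reticulum, pump it back and open the plasma membrane to calcium when that store is empty. They were taken by symbol from the deposited count tables, namely Plcg1, the IP3 receptors Itpr1, Itpr2 and Itpr3, the SERCA pumps Atp2a2 and Atp2a3, the sensors Stim1 and Stim2, and the channels Orai1 and Orai2. All 10 of 10 symbols were found among 23238 symbols, and all 10 passed the filter on low counts, so that each could be tested among 11464 genes.

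The series compared activated mouse CD4+ T cells of wild-type and PDK4 KO genotype, both on the C57BL/6j strain, with 2 libraries of each. PDK4 is a mitochondrial kinase that holds back the pyruvate dehydrogenase complex. In both genotypes naive CD4+ T cells were drawn from spleen and lymph nodes by magnetic sorting and stimulated through CD3 and CD28 in the presence of IL-2 for 48 hours. The labels give no age, do not say how Pdk4 was disrupted or in which cells, and leave unsaid whether replicates are separate animals or cultures, so that the p-values rest on a spread between libraries that may be purely technical.

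When a T cell receptor is engaged, phospholipase C gamma cleaves a membrane lipid into IP3 and diacylglycerol. IP3 opens the IP3 receptors, calcium leaves the endoplasmic reticulum, and the STIM proteins sense the emptied store and gate ORAI channels in the plasma membrane. SERCA pumps refill the store. The sustained calcium entry activates calcineurin and the NFAT transcription factors, and loss of STIM1 or ORAI1 is known to abolish this entry and to cause immunodeficiency.

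Library totals were between 8837810 and 9739624 counts, and 3 counts in a library corresponded to 0.308 to 0.339 CPM (counts scaled to library size, here to the total alone). Pdk4 had 1 and 0 counts in wild type against 0 and 2 in knockout, at or under that floor of 3 counts, so no difference was detectable and the targeted gene does not check the labels. Summed CPM of 10 T cell markers, Cd4 among them, lay between 2680 and 2860 in wild type and at 2690 and 2720 in knockout. Cd4 itself was at 251 and 254 CPM in wild type against 269 and 250 in knockout, and the other genes of the list are not restricted to CD4 T cells. Of these 10 tested genes 1 was higher in the knockout and 0 were lower. Of the markers of other cells, 10 of 12 tested B cell genes were lower in the knockout, with summed levels of 140 and 143 CPM in wild type against 29.2 and 30.4 in knockout, and Pax5 at 0 counts in every library. For CD8 T and NK cells, 2 of 15 tested markers were lower and 1 was higher. The list summed to 498 and 525 CPM in wild type against 345 and 323 in knockout. Within these sums Gzma, Klrc1, Ccl5 and Nkg7 were named after their values were seen. Gzma, the highest of the list in wild type, went from 219 and 219 CPM to 76.1 and 51.2 in knockout. Klrc1, the other lower gene, went from 26.9 and 33.0 to 13.4 and 19.1 CPM. Ccl5, the 1 higher gene, went from 15.0 and 14.4 to 34.7 and 32.3 CPM. For Nkg7, the next highest in wild type, the genotypes overlapped, at 111 and 134 against 119 and 125 CPM. Of all tested genes, 1.21% were lower and 1.45% higher. Myeloid markers summed to 40.1 and 33.0 CPM against 15.0 and 30.7 (1 of 6 tested genes lower), and innate-like T cell markers to 20.1 and 26.0 against 12.3 and 12.9 (1 of 2 tested genes lower). The part of these cells in any value below was not tested.

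None of the 10 store genes passed the test of genotype. With edgeR's quasi-likelihood test and Benjamini-Hochberg adjustment, 0 of 10 rose and 0 fell, beside 2.66% of all tested genes called in either direction (1.45% higher and 1.21% lower in the knockout). DESeq2 and limma-voom also called 0. At an unadjusted p under 0.05 there were 2 of the 10, Atp2a3 (lower in the knockout) and Orai1 (higher), beside 13.5% of all tested genes. The genotypes were separated, with no overlap between their libraries, for 4 of the 10 (Itpr1, Atp2a3, Orai1 and Plcg1), beside 43.4% of all tested genes. For Itpr1 the gap was smaller than the rounding, with wild-type replicate 1 and knockout replicate 1 both at 57.6 CPM. The median log2 fold change (knockout over wild type) was 0.07 over the 10 genes and 0.00 over all tested genes, with 7 positive and 3 negative values. For 6 of the 10 genes (Itpr1, Itpr2, Atp2a2, Stim1, Stim2 and Orai1) the 95% interval of the fold change lay within 1.5-fold in either direction. These intervals are edgeR's for each gene alone and are not adjusted for the number of genes.

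**Figure D1:**
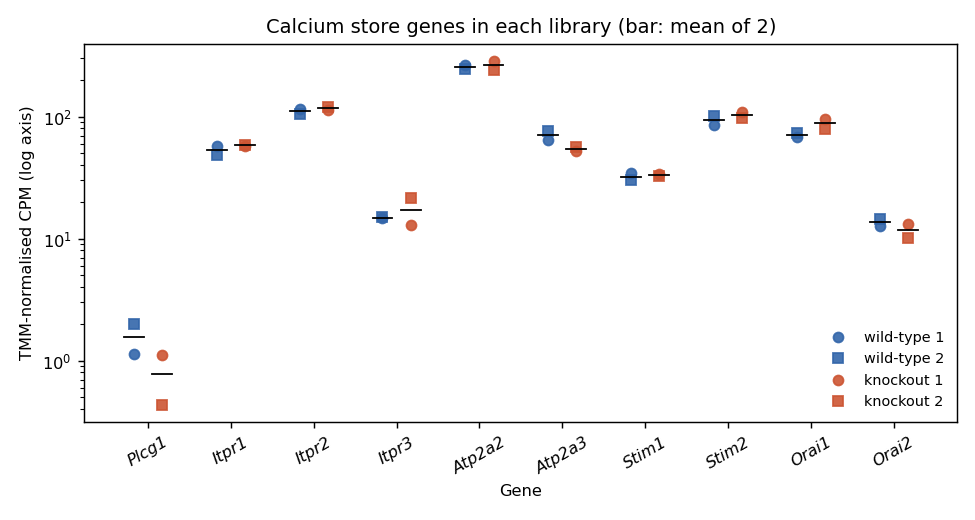
TMM-normalised CPM on a log axis for each of the 10 genes, with 1 point per library (blue, wild type; red, knockout; circles, replicate 1; squares, replicate 2) and a bar at the mean of 2. Atp2a2 is the highest gene in every library and Plcg1 the lowest, at 0.435 to 2.01 CPM.

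Levels are TMM-normalised CPM, which scale each library for its depth and composition. The libraries are made from the 3' end of transcripts, so that read number should depend little on transcript length. CPM were compared between genes without a correction for length. The annotation used for counting is not given, so the order below is one of counted reads. How well it follows transcript abundance was not tested. In both genotypes Atp2a2 came first, followed by Itpr2, Stim2 and Orai1. In wild type the order went on with Atp2a3, Itpr1, Stim1, Itpr3, Orai2 and Plcg1, and the libraries of neighbours overlapped for Orai1 and Atp2a3 alone. In the knockout Itpr1 stood above Atp2a3, and the overlap between neighbours was for Itpr3 and Orai2 alone. The 10 genes covered most of the range of tested genes, with 577 genes above Atp2a2 and 11173 above Plcg1 in mean level.

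Plcg1 encodes phospholipase C gamma 1, the form that acts in T cells. Wild-type replicates 1 and 2 held 10 and 19 counts of it, and knockout replicates 1 and 2 held 11 and 4, or, in the same order, 1.14, 2.01, 1.12 and 0.435 CPM. The genotypes are separated only by the small gap between 1.14 and 1.12 CPM. Its log2 fold change of -0.99 had a standard error of 0.88 and a 95% interval from -2.79 to 0.80 (adjusted p = 0.694), so that at this depth a fall to 0.145 of the wild-type level and a rise of 1.74-fold are both within the interval. On chromosome 2 (GRCm38, 160731300 to 160775760, plus strand), the 3' end of Plcg1 lies inside Zhx3, a gene of the minus strand at 160748708 to 160872998. Their annotated exons share 379 bases, all at least 23875 bases from the end of Plcg1, and Zhx3 itself had 5, 22, 8 and 26 counts. How the counting treated such overlaps is not given in the sources used here, and its part in the low count of Plcg1 was not tested.

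The IP3 receptors are the channels through which calcium leaves the store. Itpr2 had the highest level of them, with 116 and 106 CPM in wild type against 114 and 121 in knockout. The genotypes overlapped, and the log2 fold change was 0.08 (SE 0.104, 95% interval -0.13 to 0.30, adjusted p = 0.81). Itpr1 was at 57.6 and 48.4 CPM in wild type against 57.6 and 58.5 in knockout, where only wild-type replicate 2 was lower than the other libraries (log2 fold change 0.13, SE 0.137, interval -0.15 to 0.41, adjusted p = 0.749). Itpr3 was at 14.8 and 15.1 CPM in wild type against 12.9 and 21.4 in knockout. The knockout libraries lay on either side of the wild type (0.20, SE 0.253, interval -0.32 to 0.71, adjusted p = 0.819), and without knockout replicate 2 the sign turned (-0.21).

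The SERCA pumps return calcium to the store against its gradient. Atp2a2, which encodes SERCA2, was at 267 and 246 CPM in wild type against 285 and 243 in knockout. The knockout libraries enclosed the wild type, and the difference was the most tightly bounded of the 10, with a log2 fold change of 0.04 (SE 0.0862) and a 95% interval of the fold from 0.91 to 1.16 (adjusted p = 0.91). Atp2a3, which encodes SERCA3, a pump of blood cells and some epithelia with a lower affinity for calcium, was at 64.9 and 76.2 CPM in wild type against 52.5 and 56.5 in knockout. Both knockout libraries were lower than both wild-type libraries, as means of 70.6 ± 8.03 and 54.5 ± 2.84 CPM (SD, n = 2 each). Its log2 fold change of -0.37 (SE 0.131, interval -0.64 to -0.11) had the smallest p of the 10 (edgeR, 0.00783) and did not pass the adjustment (adjusted p = 0.147). Without wild-type replicate 2 the log2 fold change was -0.25. Among the 930 tested genes with a mean level within 1.2-fold of that of Atp2a3, 32 were called, and the smallest called log2 change in size was 0.45. In bulk RNA such as this, fewer cells that carry a transcript and less of it in each cell cannot be told apart.

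**Figure D2:**
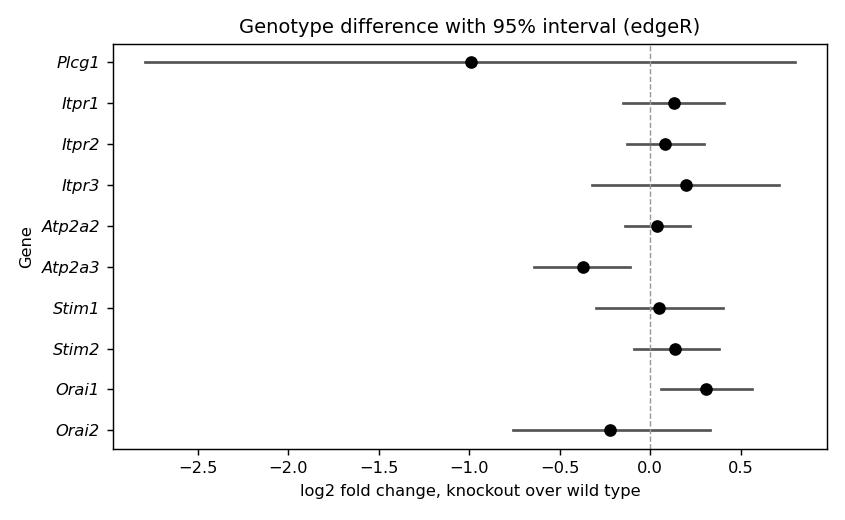
Log2 fold change of knockout over wild type for each gene (point) with its 95% interval from edgeR (line), and a dashed line at 0. The intervals of Atp2a3 (-0.64 to -0.11) and Orai1 (0.06 to 0.56) lie on 1 side of 0 before adjustment, and Plcg1 has the widest.

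The STIM proteins span the membrane of the endoplasmic reticulum and sense its calcium, STIM2 responding to smaller losses than STIM1. Stim2 had the higher level in every library, with 85.0 and 102 CPM in wild type against 110 and 97.6 in knockout. The genotypes overlapped (log2 fold change 0.14, SE 0.114, interval -0.09 to 0.38, adjusted p = 0.651). Stim1 was at 34.3 and 30.1 CPM in wild type against 34.1 and 32.5 in knockout. The wild-type libraries enclosed those of the knockout (0.05, SE 0.17, interval -0.30 to 0.40, adjusted p = 0.95), and the sign turned without wild-type replicate 2 (-0.04).

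ORAI1 forms the pore of the main store-operated channel in T cells, and ORAI2 can join it in mixed channels that carry less current. Orai1 was at 67.8 and 74.1 CPM in wild type against 96.5 and 79.6 in knockout. Both knockout libraries were higher, knockout replicate 1 by more than replicate 2, with means of 71.0 ± 4.45 and 88.0 ± 11.9 CPM (SD, n = 2 each). The log2 fold change of 0.31 (SE 0.123, 95% interval 0.06 to 0.56, unadjusted 0.0165 by edgeR) did not pass the adjustment (adjusted p = 0.222), and it was 0.16 without knockout replicate 1. Of the 779 tested genes of like level (within 1.2-fold), 28 were called, the smallest at a log2 change of 0.41. Orai2 was at 12.7 and 14.6 CPM in wild type against 13.3 and 10.2 in knockout. The genotypes overlapped, and its log2 fold change was -0.22 (SE 0.268, interval -0.76 to 0.33, adjusted p = 0.81).

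Shares within a family do not depend on how libraries are scaled against each other, and they are given as a description with no test. Of the Orai1 and Orai2 counts together, Orai2 made up 15.8% and 16.4% in wild-type replicates 1 and 2 (exact Clopper-Pearson 95% intervals 13.2 to 18.7 and 14.0 to 19.1). In knockout replicates 1 and 2 it made up 12.1% and 11.4% (10.2 to 14.2 and 9.29 to 13.7). The replicates were close to each other and the genotypes did not overlap. With 2 libraries of each genotype such separation was common, and in CPM it held for 43.4% of all tested genes. No use of molecular identifiers is stated, and the intervals cover counting error only.

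Of the Atp2a2 and Atp2a3 counts together, Atp2a3 made up 19.5% and 23.6% in wild type (18.1 to 21.0 and 22.1 to 25.2). It made up 15.6% and 18.9% in knockout (14.3 to 16.8 and 17.4 to 20.4). The genotypes did not overlap, but wild-type replicate 1 and knockout replicate 2 were nearly equal. Stim1 made up between 22.7% and 28.8% of the STIM counts, with both extremes in wild type. Among the IP3 receptor counts Itpr2 held 60.2% to 62.5% over the libraries, Itpr1 28.6% to 31.2% and Itpr3 6.97% to 10.7%. For these the genotypes overlapped. The last 400 bases of the annotated transcripts shared 0 words of 30 bases between members of any of these families, so that reads at the 3' end of 1 member have no exact copy of that length at the 3' end of another.

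**Figure D3:**
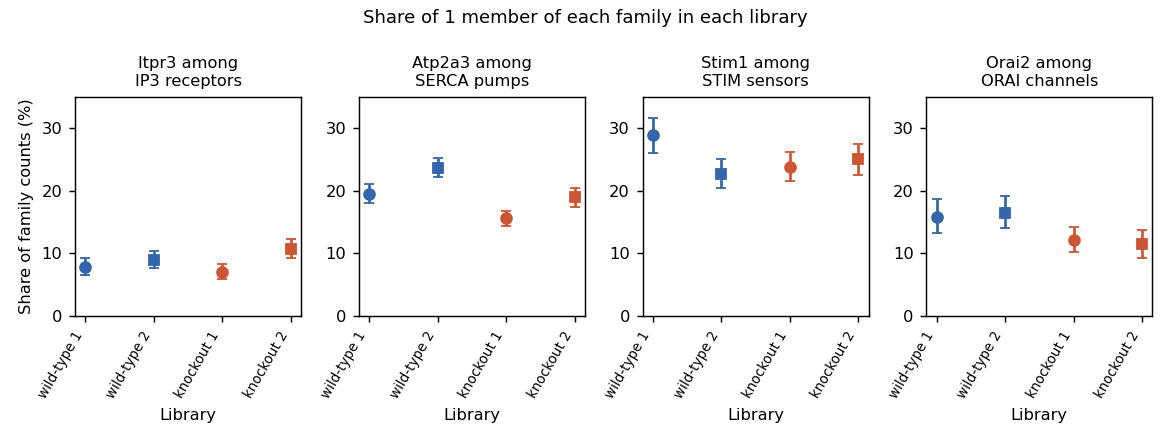
Share (%) of the counts of the measured store genes of a family that Itpr3, Atp2a3, Stim1 or Orai2 took in each library (Atp2a1 and Orai3 are not included), with exact 95% binomial intervals (blue, wild type; red, knockout). Orai2 is at 15.8% and 16.4% in wild type against 12.1% and 11.4% in knockout, while Itpr3 and Stim1 overlap between genotypes.

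Summed over Atp2a2 and Atp2a3, the SERCA genes were at 332 and 323 CPM in wild type against 337 and 299 in knockout. The IP3 receptor genes summed to 189 and 169 CPM against 185 and 201, and the STIM genes to 119 and 133 against 144 and 130. In these 3 families the genotypes overlapped. Orai1 and Orai2 summed to 80.6 and 88.7 CPM in wild type against 110 and 89.8 in knockout, where the genotypes were apart by the gap between 88.7 and 89.8 CPM. Atp2a1 and Orai3, chosen after their values were seen to complete their families, did not pass the test. Atp2a1 was at 8.41 and 8.34 CPM in wild type against 5.01 and 5.65 in knockout (log2 fold change -0.65, SE 0.364, adjusted p = 0.452). Orai3 was at 13.5 and 16.7 against 11.5 and 12.8 CPM (-0.31, SE 0.258, adjusted p = 0.671). With Orai3 included, the ORAI sums were 94.1 and 105 CPM in wild type against 121 and 103 in knockout, and the genotypes overlapped. Orai1 then held 72.1% and 70.3% of the ORAI counts in wild type against 79.5% and 77.5% in knockout, with no overlap.

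By the centred log2 CPM over the 4 libraries, the genes whose pattern was most like that of Atp2a3 were Cd63, Zbtb38 and Arpc1b, among 7782 genes that averaged 10 CPM or more. Their Euclidean distances to Atp2a3 were 0.0178, 0.0263 and 0.0336 on the log2 scale. With 4 libraries, many genes lie near any given pattern. Arpc1b, a subunit of the actin-branching ARP2/3 complex, was at 699 and 828 CPM in wild type against 558 and 619 in knockout. It fell by 0.38 on the log2 scale (SE 0.0749, adjusted p = 0.00219 by edgeR). As these genes were picked for their likeness to Atp2a3, their changes are no support for its own. Cd63 and Zbtb38 had log2 fold changes of -0.37 and -0.36 and did not pass (adjusted p = 0.599 and 0.283).

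The genes around the store were read from lists of the pathway, chosen with earlier results of these data known. A list of regulators and other proteins of the endoplasmic reticulum store had 22 tested genes, among them Atp2a1 and Orai3 given above. Of the 22, 0 rose and 0 fell (edgeR, and 0 by DESeq2 and limma-voom). At an unadjusted p under 0.05 there were 6 of the 22, beside 13.5% of all tested genes. The median log2 fold change of the 22 was 0.10, beside 0.00 over all tested genes. The smallest p-values were those of Ergic1 and Tespa1. Ergic1, a protein of the compartment between the endoplasmic reticulum and the Golgi, was at 64.2 and 66.8 CPM in wild type against 93.2 and 77.1 in knockout (0.38, SE 0.124, adjusted p = 0.112). Tespa1, which binds IP3 receptors in thymocytes, was at 9.54 and 6.97 against 14.3 and 14.4 CPM (0.80, SE 0.287, adjusted p = 0.164).

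The list of phospholipase C gamma activation had 19 tested genes, with receptor and coreceptor genes and Plcg2 itself among them. Of the 19, 0 rose and 0 fell (edgeR, and 0 by DESeq2 and limma-voom), with a median of 0.03. At an unadjusted p under 0.05 there were 4, beside 13.5% of all tested genes. Plcg2, the paralog used by B cells, was at 4.20 and 2.75 CPM in wild type against 0.715 and 1.09 in knockout (log2 fold change -1.93, SE 0.715, adjusted p = 0.182). Both knockout libraries were lower, as were the summed B cell markers given above, and the part of B cells in this value was not tested. Cd247, the zeta chain of the receptor, was at 255 and 290 against 233 and 234 CPM (-0.22, SE 0.084, adjusted p = 0.189).

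Among 23 tested genes of IP3 and diacylglycerol turnover and response, 1 fell and 0 rose (4.35%, beside 2.66% of all tested genes), with a median of 0.01. At an unadjusted p under 0.05 there were 2, beside 13.5% of all tested genes. The gene that fell was Dgka, the diacylglycerol kinase that limits Ras activation below the receptor, at 264 and 297 CPM in wild type against 202 and 200 in knockout. Its log2 fold change was -0.48 (SE 0.0847, adjusted p = 0.000428), and it was called in all 13 alternative settings.

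A list of plasma membrane transport had 12 tested genes, among them Atp2c1, which encodes a pump of the Golgi. Of the 12, 1 rose and 2 fell (25.0%, beside 2.66% of all tested genes), with a median of 0.11. The list was chosen with earlier results of these data known, so the share is a description and was not tested. At an unadjusted p under 0.05 there were 3, beside 13.5% of all tested genes. Without wild-type replicate 1 or without knockout replicate 1, the list had 1 called gene. Atp2b4, the plasma membrane pump PMCA4 that expels calcium from the cell, was at 66.1 and 81.8 CPM in wild type against 37.2 and 38.3 in knockout. Both knockout libraries stood at about the same level and below the wild type, the log2 fold change being -0.97 (SE 0.14, adjusted p = 2.25e-05). It was called in all 13 alternative settings. Kcnn4, a calcium-activated potassium channel whose current sustains calcium entry, was at 298 and 367 CPM in wild type against 431 and 409 in knockout (0.34, SE 0.0828, adjusted p = 0.0165). Its call was lost without wild-type replicate 1 (log2 fold change 0.20, adjusted p = 0.316), without knockout replicate 1 (log2 fold change 0.30, adjusted p = 0.22) and without knockout replicate 2 (log2 fold change 0.37, adjusted p = 0.0508). P2rx7, an ATP-gated cation channel, went from 47.0 and 42.2 to 25.3 and 33.6 CPM (-0.60, SE 0.168, adjusted p = 0.0455). It was called in 5 of the 13 alternatives, and with a replicate block its adjusted p was 0.0761.

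Of 20 tested genes of calmodulin, calcineurin and NFAT, 1 fell and 0 rose (5.0%, beside 2.66% of all tested genes), with a median of -0.07. At an unadjusted p under 0.05 there were 4, beside 13.5% of all tested genes. Akap5, a scaffold that binds calcineurin, was at 1120 and 932 CPM in wild type against 736 and 885 in knockout (log2 fold change -0.34, SE 0.0783, adjusted p = 0.00864). The call was lost with DESeq2 (-0.34, adjusted p = 0.594), without wild-type replicate 1 (-0.20, adjusted p = 0.159) and without knockout replicate 1 (-0.22, adjusted p = 0.381). As given above, the B cell list had 10 of 12 tested genes lower in the knockout, beside 1.21% of all tested genes. The CD8 T and NK cell list went both ways, with 2 of 15 lower and 1 higher (1.45% of all tested genes were higher). What part such cells had in the called genes was not tested.

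**Figure D4:**
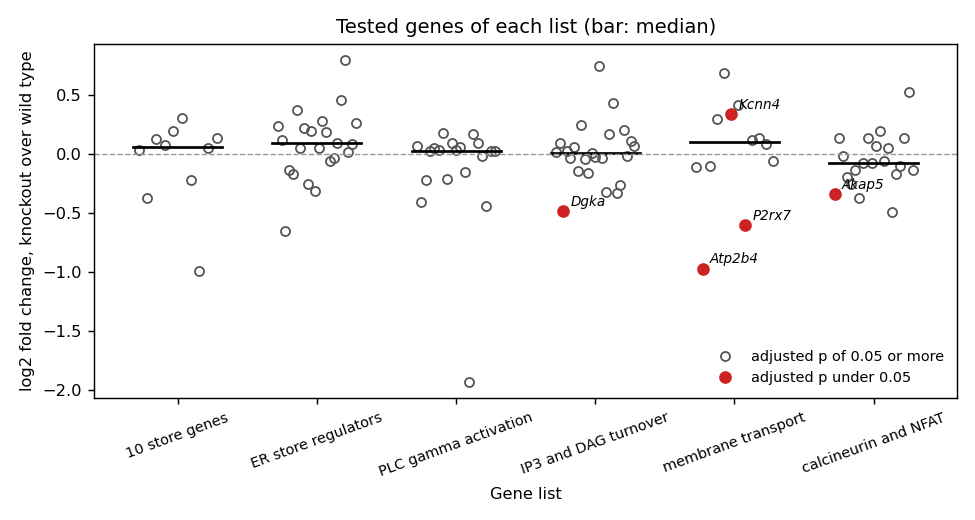
Log2 fold change of knockout over wild type for every tested gene of the 10 store genes and of the 5 pathway lists, with a bar at each median. Filled red points passed an adjusted p of 0.05, namely Dgka, Atp2b4, Kcnn4, P2rx7 and Akap5, and 0 of the 10 store genes did.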

How the data were processed

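For each of the 4 libraries the authors deposited raw counts, with 1 row per gene symbol. Per the labels' protocols, each was made from 500 ng of RNA with the Lexogen QuantSeq kit, which reads 3' ends. The submitters' processing notes name Bowtie2, edgeR and mm10. How reads were counted, on which annotation and whether by strand, is not given in the sources used here. For 35 symbols with several rows, the rows were added up. Genes passing filterByExpr (11464) were tested with edgeR 4.0.16 in R 4.3.3 (TMM, estimateDisp, glmQLFit, two-sided glmQLFTest, genotype as the only term), with Benjamini-Hochberg adjustment over all of them. Genes with an adjusted p under 0.05 are called, and only these are said to have risen or fallen. The SE is the size of the log2 fold change divided by the square root of F, and its interval uses edgeR's degrees of freedom.

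Alternatives were other scalings (DESeq2's size factors, upper quartile, library size only), DESeq2 1.42.0, limma-voom (limma 3.58.1), no filter, a filter of 5 CPM in 2 libraries, Rn45s left out, a replicate block and each library left out. The members and pathway lists were chosen with earlier results of these data known. Named genes are the 10 members, up to 4 called genes of each list by smallest p (or the 2 with the smallest p where none was called), the 3 genes nearest in pattern to the member with the smallest p, and Pdk4. Positions and overlaps are from GENCODE vM21 (GRCm38, the assembly of mm10), matched by symbol. The test was tested on simulated data.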

Additional observations from a re-analysis of the deposited data

How the results depend on the processing

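Across the 13 alternatives 0 of the 10 store genes were called. The number at an unadjusted p under 0.05 was 2, falling to 1 when wild-type replicate 1 was left out and to 0 when knockout replicate 1 was. These were Atp2a3 and Orai1, except that Stim2 stood in place of Atp2a3 when wild-type replicate 2 was out. Their median log2 fold change (0.07) lay between -0.01 and 0.12 with 1 library left out. The signs of Itpr3 (-0.21 to 0.52 with 1 library left out, the lowest without knockout replicate 2), Atp2a2 (-0.08 to 0.15, lowest when knockout replicate 1 was out, and -0.02 when wild-type replicate 2 was) and Stim1 (-0.04 to 0.15, lowest without wild-type replicate 2) turned, none of them called. Plcg1 was left out by the stricter filter. All called genes (305) numbered between 170 (without knockout replicate 1) and 293 with 1 library left out, and 184 when wild-type replicate 2 was out.

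Median log2 fold changes with 1 library left out were 0.06 to 0.11 for store regulators, -0.01 for phospholipase activation, -0.07 to 0.02 for IP3 turnover, 0.02 to 0.15 for membrane transport and -0.11 to 0.01 for calcineurin and NFAT. For store regulators it was 0.08 with upper quartile scaling, 0.12 with library size only, 0.10 with limma-voom and 0.06 with the stricter filter. For phospholipase activation it was 0.06 with library size only, and for membrane transport 0.01 with the stricter filter. Calls among membrane transport genes were 1 to 2 with 1 library left out (1 without either replicate 1). Those of calcineurin and NFAT were 0 to 1 (0 without either replicate 1), 0 with DESeq2 and 2 with the stricter filter, which added Ppp3ca, named after its values were seen. The causes were not tested.

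The same replicate numbers do not pair the libraries by any label, and deviations of same-numbered libraries correlated at 0.0111 over the tested genes. With the replicate number as a block, 260 genes were called, 0 of them among the 10, and Atp2a3 and Orai1 had adjusted p of 0.17 and 0.273 in edgeR. P2rx7 lost its call, and the other called list genes named kept theirs. Depth limits Plcg1 most, at 4 to 19 counts.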
